A study of Mus musculus with 12 samples.

Results

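The autophagy machinery was followed across microglia from wild types and from CPEB1 knockouts, with and without lipopolysaccharide (LPS). It was taken as 36 named genes, found by symbol in the deposited tables. All 36 of 36 were among the 23845 genes listed, and all 36 passed the filter on low counts that left 15295 genes for testing. Microglia are the resident macrophages of the brain. CPEB1 is a cytoplasmic protein that binds mRNA and controls polyadenylation and translation, and LPS is a component of bacterial outer membranes that activates macrophages. There were 4 groups, each of 3 animals with 1 library per animal. Untreated wild types form the WT group and wild types injected with LPS 24 h before harvest the WT-LPS group; the CPEB1-KO and CPEB1-KO-LPS groups are the corresponding knockouts. All mice were C57BL6/J and 3 to 4 months old, and cells were purified on Percoll density gradients. The labels name the knockout by genotype alone. Its allele, whether it is limited to a cell type, the LPS dose and the animals' sex are not stated in the labels used here.

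In autophagy, a cell wraps part of its cytoplasm in a newly made membrane and delivers it to the lysosome for breakdown. The ULK kinase complex starts the process, a class III phosphatidylinositol 3-kinase complex marks the site, ATG9, ATG2 and WIPI proteins supply membrane and lipid, and conjugation enzymes attach LC3 and GABARAP proteins to that membrane. ATG4 proteases prepare LC3 and GABARAP for conjugation and release them again, and cargo receptors such as p62 (Sqstm1) tie cargo to the membrane. In macrophages the same machinery clears damaged organelles and intracellular bacteria and takes part in limiting inflammatory signalling. Transcript levels do not measure the flow of material through this pathway.

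Depth ran from 5.02 to 13.5 M expected counts per library, in units of 1e+06 counts (M). The targeted gene, Cpeb1, was detected in every library. It lay between 15.5 and 43.3 TPM (transcripts per 1e+06 transcripts) in WT and between 17.6 and 26.4 TPM in CPEB1-KO, and the groups did not differ past the threshold (log2 fold change −0.58 ± 0.31 (SE), edgeR adjusted p = 0.334). The transcript level therefore did not separate the genotypes, and the name CPEB1-KO is used here for the libraries labelled so. None of the 13 homeostatic microglial markers was at 0 in all 3 libraries of a group, and markers of other cells were detected too. Snap25, a neuronal gene, lay between 572 and 2440 TPM, Gfap, an astrocyte gene, between 80.1 and 862 TPM, and Hbb-bs, a red cell haemoglobin gene, between 2719 and 27831 TPM. In such bulk samples fewer cells of a type and less RNA per cell cannot be told apart.

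Levels per transcript length (TPM) were dominated by the small proteins that coat the membrane and by 1 cargo receptor. Gabarapl1, a GABARAP family member, had the highest mean over the 12 libraries, 546 TPM, with a range of 168 to 978 TPM. Sqstm1, which encodes the ubiquitin-binding receptor p62, followed with 437 TPM (148 to 742). Map1lc3a came next with 408 TPM, then Gabarapl2 with 383, Gabarap with 321 and Map1lc3b with 274. The ranges of these 6 neighbours over the 12 libraries overlapped. Together these 6 genes held 68.0% ± 8.02 (SD, n = 3) of the summed TPM of the 36 members in WT, 70.1% ± 5.64 in WT-LPS, 73.3% ± 1.14 in CPEB1-KO and 70.6% ± 1.79 in CPEB1-KO-LPS.

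The enzymes and scaffolds were far lower. Becn1, the Beclin 1 subunit of the class III kinase complex, had a mean of 108 TPM and a range of 81.1 to 133 TPM, and Tax1bp1, a cargo receptor, had 75.9 TPM. From Atg9a (61.4 TPM), the transmembrane lipid scramblase, down to Atg5 (18.1 TPM), the acceptor of ATG12 in the conjugation system, 18 members were spread over neighbouring levels. The lowest 10 ran from Atg4c (15.8 TPM) to Atg10 (8.13 TPM) and Atg4a (3.72 TPM). Atg4a, one of the proteases, had between 22 and 75.4 expected counts per library, so it carries the largest counting error among the members. Relative to its mean over the 12 libraries, Atg16l2 varied most, with a coefficient of variation of 58.3%, followed by Atg4c with 50.1% and Gabarapl1 with 42.7%. Gabarap (11.4%) and Becn1 (12.1%) varied least.

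**Figure D1:**
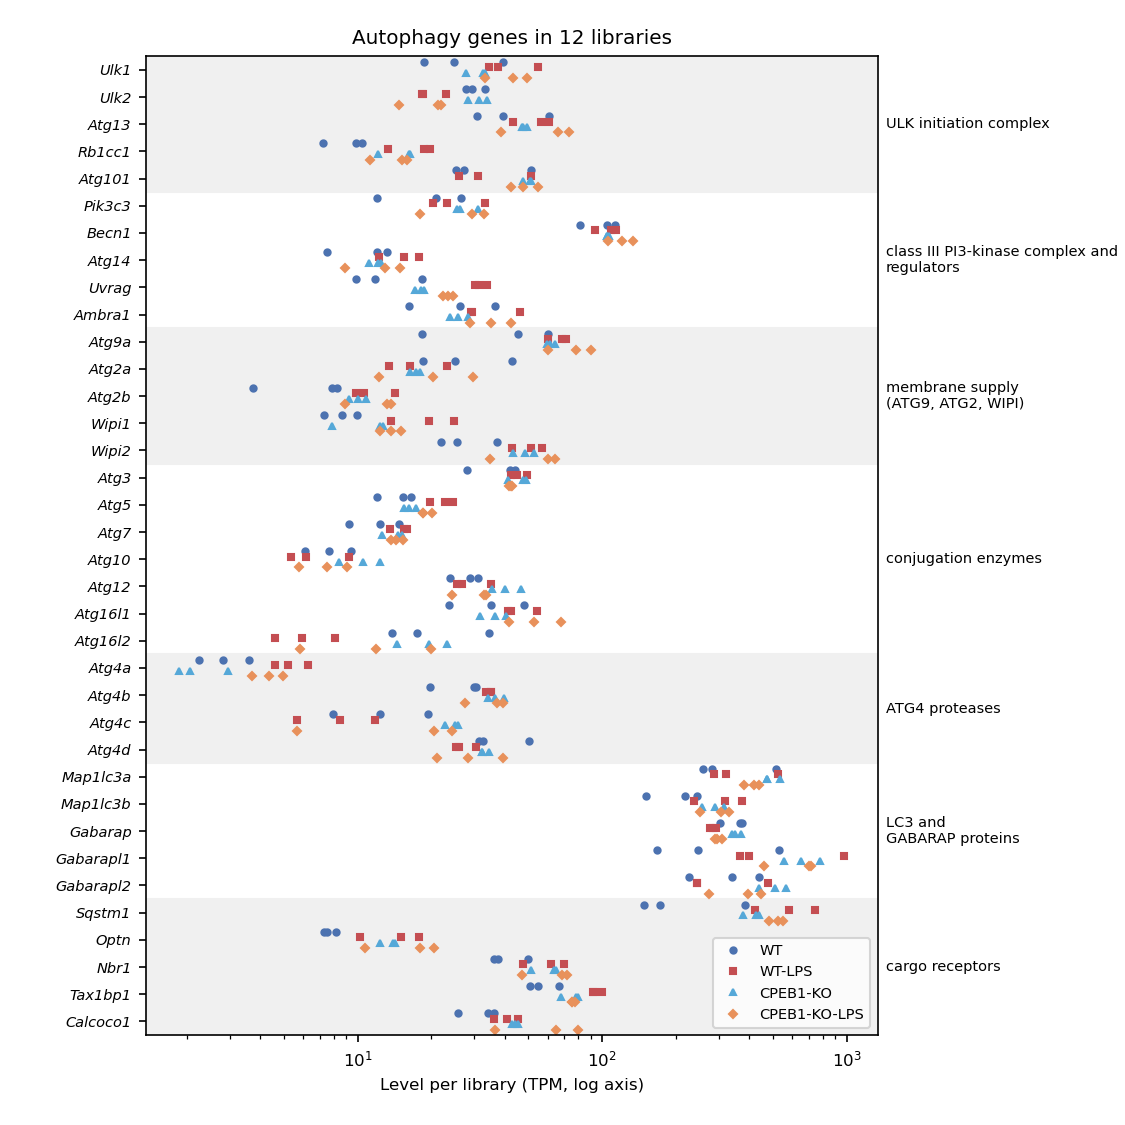
Level of each of the 36 autophagy genes (rows, grouped by role) in each of the 12 libraries, in TPM on a log axis; each point is 1 library and its shape and colour give the group. The LC3 and GABARAP genes and Sqstm1 lie at 148 to 978 TPM, whereas Atg4a stays at 1.87 to 6.28 TPM.

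The first comparison asked how LPS changed these genes in wild-type microglia. With LPS, 3 of 36 members rose and 5 fell (edgeR quasi-likelihood test, Benjamini-Hochberg adjusted p under 0.05 over the 15295 genes tested). Uvrag, a Beclin 1 partner that acts in autophagosome maturation and endosomal traffic, Sqstm1 and Rb1cc1 (FIP200, the scaffold of the ULK complex) rose. Atg16l2, Ulk2, Atg2a, Atg4d and Gabarap fell, by 1.59-fold for Gabarap to 4.46-fold for Atg16l2. Of all genes tested, 27.4% passed in this comparison (12.4% higher and 14.9% lower), and 8 of 36 is 22.2%, so the autophagy genes were called at about the rate of all genes. Their median log2 fold change was 0.04, against −0.03 over all genes, with 21 positive and 15 negative estimates. At an unadjusted p under 0.05 there were 13 members, the 8 above plus Wipi1, Wipi2, Atg2b, Optn and Atg4c. Normalised CPM (counts per 1e+06 counts, scaled between libraries by TMM) in the 3 WT-LPS libraries lay wholly above the 3 WT libraries for 7 members and wholly below for 6, where 17.5% and 20.1% of all genes did so (37.6% in either direction).

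These are fold changes of counts normalised between libraries. Without that step, on the TPM scale, the median of all genes shifted by 0.28 (log2) in this comparison and by 0.26 in CPEB1-KO against WT, and a change is to be read relative to that shift. On that scale limma on log2(TPM + 1) called 10 members, 9 higher and 1 lower, against 7, 2 higher and 5 lower, once the library medians were equalised. None of the 8 called members changed sign on the TPM scale, while 7 others with small negative estimates did (Atg13, Atg101, Becn1, Atg3, Atg7, Atg12 and Map1lc3a). The count of called members was 6 with the replicate number as a block, which lost Rb1cc1 (adjusted p = 0.0510) and Gabarap (0.0564). It was 3 (Uvrag, Ulk2 and Atg16l2) when only the 6 WT and WT-LPS libraries were fitted, and 5 when WT replicate 2, WT replicate 3 or WT-LPS replicate 3 was left out. Markers of several cell types differed in the same libraries. The summed TPM of the 13 homeostatic microglial markers, 8 of them called lower, was 7367 to 8761 in WT and 1600 to 5800 in WT-LPS. That of the 6 choroid plexus and ependymal markers, all 6 called lower, was 4436 to 7773 and 1123 to 2300, and that of the 4 erythroid markers, all 4 called lower, 41663 to 66991 and 6544 to 10887. The 9 markers of T, NK and B cells (5 called lower) summed to 36.2 to 63.6 and 16.5 to 24.6, and the 7 monocyte markers (4 called higher) to 49.4 to 67.7 and 249 to 508. The sums of the 10 astrocyte markers (2 called higher) overlapped, at 1095 to 2310 and 2148 to 3664. So did those of the 12 oligodendrocyte lineage markers (4 called lower), at 4264 to 8332 and 4186 to 8297. The 10 endothelial and mural markers (4 called higher and 1 lower) had overlapping sums of 93.7 to 112 and 89.6 to 217. Sums of the 12 neuronal markers (0 called, 11 estimates positive and 1 negative) also overlapped, at 1433 to 4096 and 2313 to 6443. The part of all these markers in the changes of the autophagy genes was not tested.

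The proximal promoters of 4 of the 8 called members are shown, because these genes moved in opposite directions and their windows lie wholly outside the annotated gene body. Each is the stretch of 250 bases before the RefSeq start site, on the gene's strand, in GRCm38.p6. They lie at chr7:99141145-99141394 (minus strand) for Uvrag, which rose, and at chr11:61855093-61855342 (minus) for Ulk2, chr9:21265035-21265284 (plus) for Atg4d and chr19:6241418-6241667 (plus) for Atg2a, which fell. Capitals mark a match to one of the searched motifs.

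Uvrag: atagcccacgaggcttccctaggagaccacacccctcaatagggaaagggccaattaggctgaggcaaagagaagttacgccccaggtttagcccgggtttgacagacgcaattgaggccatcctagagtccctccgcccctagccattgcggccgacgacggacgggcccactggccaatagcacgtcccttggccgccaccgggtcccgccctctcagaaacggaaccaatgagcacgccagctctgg
Ulk2: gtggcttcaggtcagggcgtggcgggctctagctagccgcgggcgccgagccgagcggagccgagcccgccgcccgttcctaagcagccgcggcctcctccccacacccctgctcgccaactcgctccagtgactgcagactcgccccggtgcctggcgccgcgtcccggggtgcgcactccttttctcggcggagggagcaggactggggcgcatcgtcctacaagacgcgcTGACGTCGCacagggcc
Atg4d: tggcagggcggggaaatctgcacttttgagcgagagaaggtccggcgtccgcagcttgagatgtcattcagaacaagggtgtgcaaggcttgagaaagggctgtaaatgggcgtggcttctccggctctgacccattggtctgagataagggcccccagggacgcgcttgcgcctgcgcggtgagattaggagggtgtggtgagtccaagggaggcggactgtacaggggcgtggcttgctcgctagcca
Atg2a: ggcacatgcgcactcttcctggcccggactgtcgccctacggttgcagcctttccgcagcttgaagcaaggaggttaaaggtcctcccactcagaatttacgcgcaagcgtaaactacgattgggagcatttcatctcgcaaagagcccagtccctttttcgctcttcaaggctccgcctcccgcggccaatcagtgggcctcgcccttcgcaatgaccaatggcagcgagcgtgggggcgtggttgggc

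RefSeq held such a window for 30 of the 36 members (34 windows, since some genes have more than 1 start site). CACGTG, the E-box core of the CLEAR element read by TFEB and related factors, was found in 3 of the 34 windows (Atg3, Atg5 and Atg7) and in 6.02% of all 32851 windows of that length. TCACGTG, a longer form that contains the same core, was in 2 windows (Atg3 and Atg7) and in 3.13% of all. TGACNNNGC, the core of the antioxidant response element, was in 3 (Atg13, Tax1bp1 and Ulk2) and in 10.2% of all, and an NF-kappaB consensus was in 0 and in 1.02% of all. Both strands were searched. The Atg7 window and the matched Tax1bp1 window lay wholly inside the annotated gene (all 250 bases), unlike the printed windows. Of the 7 called members with a window only Ulk2 held a match, TGACGTCGC, whose first base is 17 bases before the start site. The window of Ulk2 had 72.8% G and C, against 61.6% for Uvrag, 60.4% for Atg4d and 59.6% for Atg2a. A match is a stretch of letters and was not tested for binding.

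Within the ULK complex, Ulk2 and Rb1cc1 changed in opposite directions. Ulk2 encodes a kinase related to ULK1 (chromosome 11, 61775649 to 61855073, mm10). It had 109, 169 and 114 CPM in the 3 WT libraries and 59.8, 68.1 and 72.3 in WT-LPS. All WT-LPS libraries were below all WT libraries, and the log2 fold change was −0.97 ± 0.20 (SE; adjusted p = 0.00384). Rb1cc1 (chromosome 1, 6206197 to 6276648) had 47.5, 45.3 and 49.5 in WT and 73.7, 60.2 and 76.0 in WT-LPS. Again the groups did not overlap, with the LPS group above (0.56 ± 0.17, adjusted p = 0.0292). The call of Rb1cc1 was lost without WT replicate 1 (adjusted p = 0.0503), WT replicate 2 (0.0511) or WT-LPS replicate 3 (0.0871). Ulk1, Atg13 and Atg101 did not pass, and their groups overlapped (log2 fold changes 0.27, −0.06 and −0.28).

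Uvrag was the one called member of the class III kinase group. It is annotated on chromosome 7 (98885021 to 99141141). Its normalised CPM were 39.0, 28.8 and 27.8 in WT and 58.0, 63.7 and 60.6 in WT-LPS. The 3 LPS libraries were close to each other and above every WT library, a rise of 0.93 ± 0.19 (log2, SE), or 1.90-fold, with an adjusted p of 0.00355. Pik3c3 (the lipid kinase itself), Atg14 (the targeting subunit of the autophagy-specific complex) and Ambra1 (a regulator of Beclin 1) stayed between 0.04 and 0.15 and did not pass. Becn1 had an estimate of −0.27 ± 0.16 (adjusted p = 0.223), with 124, 132 and 149 in WT above 112, 110 and 115 in WT-LPS.

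Among the genes that supply membrane, Atg2a fell. ATG2 proteins carry lipids into the growing membrane, and Atg2a lies on chromosome 19 (6241668 to 6262335). WT libraries held 75.5, 140 and 194 normalised CPM, and WT-LPS libraries 47.3, 66.5 and 80.1. The lowest WT library, replicate 1, was below the highest WT-LPS library, so the groups overlapped (−1.08 ± 0.32, adjusted p = 0.0262). The call was lost without WT replicate 2 (0.0642), WT replicate 3 (0.123), WT-LPS replicate 1 (0.0947) or WT-LPS replicate 2 (0.0647). Its paralog Atg2b (0.49 ± 0.21, adjusted p = 0.0943) and the phosphoinositide-binding Wipi1 (0.80 ± 0.31, 0.0698) and Wipi2 (0.50 ± 0.19, 0.0710) had positive estimates that missed the threshold, and Atg9a had 0.41 ± 0.26 (adjusted p = 0.247).

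In the conjugation system the change was at Atg16l2. ATG16L1 is the subunit that directs LC3 conjugation to the membrane, and ATG16L2 is its paralog (chromosome 7, 101263034 to 101302251). Atg16l2 had 22.4, 24.2 and 48.7 normalised CPM in WT and 5.09, 7.49 and 8.74 in WT-LPS. Every WT-LPS library was below every WT library, and the fall was by 2.16 ± 0.41 on the log2 scale (adjusted p = 0.00252). Atg16l1 held 67.6, 63.1 and 100.4 in WT and 70.8, 77.8 and 87.1 in WT-LPS, overlapping ranges with an estimate of 0.03. The other 5 conjugation genes, Atg3, Atg5, Atg7, Atg10 and Atg12, lay between −0.54 and 0.25 and none passed.

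Of the ATG4 proteases, which cut LC3 and GABARAP proteins, Atg4d fell. It is annotated on chromosome 9 (21265293 to 21277772). Its normalised CPM were 58.0, 83.1 and 103.1 in WT and 41.7, 46.3 and 47.6 in WT-LPS, without overlap (−0.85 ± 0.22, adjusted p = 0.0141). The adjusted p was 0.0601 without WT replicate 3. Atg4c had a similar estimate with a wider error (−0.87 ± 0.39, adjusted p = 0.110), Atg4b was at 0.04 ± 0.16 and Atg4a at 0.53 ± 0.34.

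One of the 5 LC3 and GABARAP genes passed. Gabarap (chromosome 11, 69991143 to 69994951) had 213, 295 and 194 normalised CPM in WT and 146, 157 and 138 in WT-LPS. Its WT-LPS libraries lay below the WT libraries (−0.67 ± 0.21, adjusted p = 0.0331). This was the least stable of the 8 calls: it was lost when any 1 of 8 libraries was left out, namely WT replicate 2 (0.169), each of the 3 WT-LPS libraries (0.0862, 0.0622 and 0.0994), CPEB1-KO replicates 2 and 3 (0.0539 and 0.0531), or CPEB1-KO-LPS replicates 1 and 2 (0.0575 and 0.0591). Gabarapl1 showed a wide spread, with 537, 344 and 188 in WT and 859, 369 and 341 in WT-LPS, and did not pass (0.55 ± 0.39, adjusted p = 0.310). In each of these groups replicate 1 was the highest for Gabarapl1, and replicate 1 also held the highest Snap25, 1457 TPM of 572 to 1457 in WT and 2440 TPM of 686 to 2440 in WT-LPS. Replicate 1 was also the highest in both groups for other members, among them Map1lc3a (271 and 238 normalised CPM) and Sqstm1. The part of neuronal RNA in the levels of Gabarapl1, Map1lc3a and Sqstm1 was not tested.

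Among cargo receptors Sqstm1 (chromosome 11, 50199366 to 50210827) rose. WT libraries held 450.4, 275 and 191 normalised CPM and WT-LPS libraries 747, 483 and 570. The groups did not overlap, although the lowest WT-LPS library (483) was near the highest WT library (450.4). The log2 fold change was 0.97 ± 0.29, a 1.96-fold rise (adjusted p = 0.0262). The call was lost without WT replicate 2 (0.0595), WT replicate 3 (0.0831), WT-LPS replicate 1 (0.0589) or WT-LPS replicate 3 (0.0545). In both groups replicate 1, the library with the highest Snap25, was also the highest for Sqstm1. The other 4 receptors were positive or near 0 and did not pass: Optn at 0.53 ± 0.23, Tax1bp1 at 0.37 ± 0.18, Nbr1 at 0.16 ± 0.19 and Calcoco1 at 0.00 ± 0.19. As a share of the summed TPM of all 36 members, cargo receptors took 16.2%, 12.99% and 12.9% in the WT libraries and 21.8%, 22.2% and 24.9% in the WT-LPS libraries, which did not overlap. Sqstm1 made up most of this share. It held 383, 172 and 148 of the receptors' 544.5, 297.1 and 276.4 TPM in WT. In WT-LPS it held 742, 420 and 580 of 961.7, 606.6 and 802 TPM. The separation is therefore not shown for the other 4 receptors, whose share was not computed apart.

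**Figure D2:**
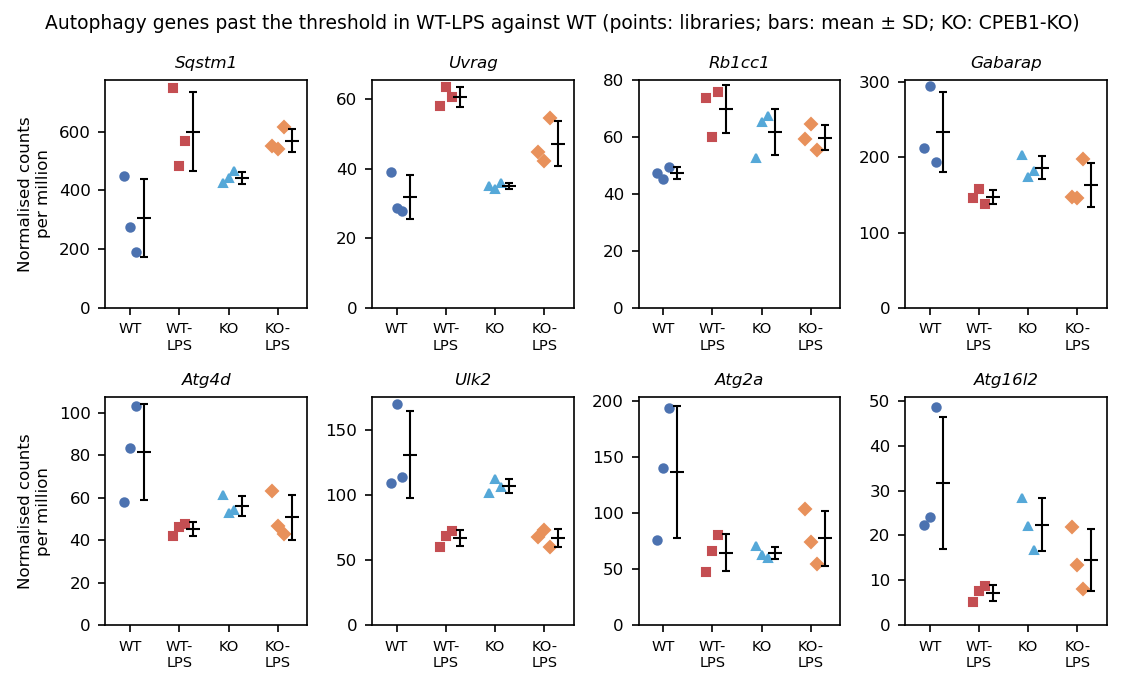
TMM-normalised CPM of the 8 autophagy genes that passed the threshold in WT-LPS against WT, 1 panel per gene, with a point for each library and a bar for the mean ± SD of each group (n = 3; KO stands for CPEB1-KO). For Atg16l2 the WT-LPS libraries sit at 5.09 to 8.74 and the WT libraries at 22.4 to 48.7.

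Pairs of related genes were compared within each library, where the scaling between libraries drops out. These ratios of TPM are descriptions without a test. Ulk1 to Ulk2 was 0.848, 0.568 and 1.42 in WT, 1.87, 2.03 and 2.38 in WT-LPS, 0.976, 0.957 and 1.06 in CPEB1-KO and 2.32, 1.97 and 2.25 in CPEB1-KO-LPS. With LPS the ratio was higher in all 3 libraries of each genotype than in any library without LPS. Atg16l1 to Atg16l2 was 1.39 to 2.01 in WT, 6.64 to 9.16 in WT-LPS, 1.73 to 2.20 in CPEB1-KO and 3.40 to 7.18 in CPEB1-KO-LPS, again without overlap between LPS and no LPS. Atg2b to Atg2a was 0.444, 0.150 and 0.183 in WT, against 0.601 to 0.796 in WT-LPS, 0.513 to 0.627 in CPEB1-KO and 0.462 to 0.723 in CPEB1-KO-LPS. All WT libraries were below the other groups, but WT replicate 1 (0.444) was close to the lowest CPEB1-KO-LPS library (0.462). Gabarapl1 to Gabarap was 0.552 to 1.44 in WT and 1.33 to 3.35 in WT-LPS, and these overlapped. Map1lc3a to Map1lc3b was 1.29 to 2.10 in WT, 1.01 to 1.40 in WT-LPS, 1.63 to 1.86 in CPEB1-KO and 1.26 to 1.51 in CPEB1-KO-LPS.

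**Figure D3:**
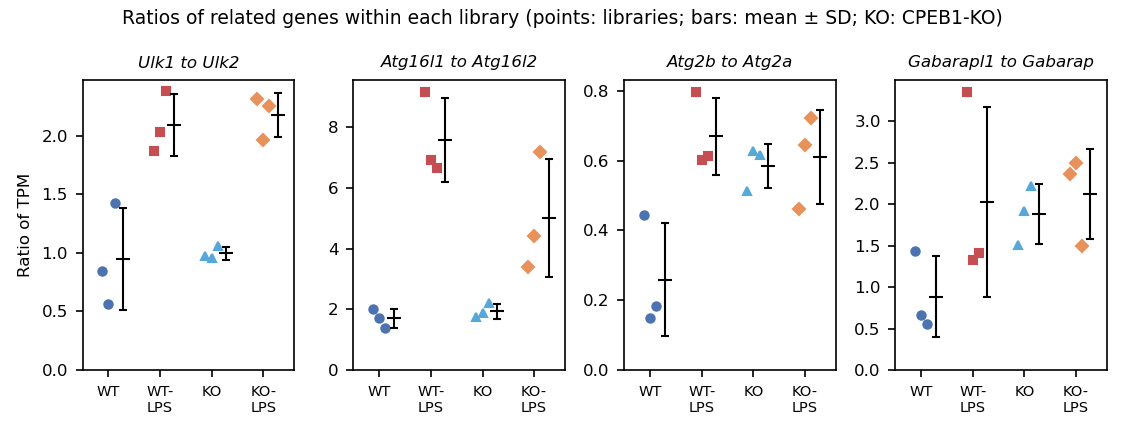
Ratio of TPM between 2 related genes within each library for 4 pairs, with a point per library and a bar for the mean ± SD of each group (n = 3; KO stands for CPEB1-KO). Ulk1 to Ulk2 lies at 0.568 to 1.42 without LPS and at 1.87 to 2.38 with it.

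The second comparison asked how LPS changed the same genes in the mice labelled CPEB1-KO. None of the 36 members passed in edgeR, where 6.22% of all genes did (4.1% higher and 2.12% lower). At an unadjusted p under 0.05 there were 5 (Ulk2, Uvrag, Atg16l1, Atg4a and Calcoco1); DESeq2 called 1, Ulk2, and limma on log2(TPM + 1) called 0. Ulk2 had 101, 112 and 106 normalised CPM in CPEB1-KO and 67.9, 72.9 and 59.7 in CPEB1-KO-LPS. These groups did not overlap, and the estimate was −0.67 ± 0.20 (edgeR adjusted p = 0.0621). Ulk2 passed in edgeR when only the CPEB1-KO and CPEB1-KO-LPS libraries were fitted, and also without WT replicate 2 or WT-LPS replicate 1. Uvrag had 35.1, 34.3 and 36 in CPEB1-KO and 44.7, 42.3 and 54.7 in CPEB1-KO-LPS, also without overlap (0.43 ± 0.18, adjusted p = 0.205). Sqstm1 had 423, 442 and 464 in CPEB1-KO and 551, 542 and 615 in CPEB1-KO-LPS, without overlap (0.36 ± 0.29, adjusted p = 0.531).

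Some of the genes called in wild type held values in CPEB1-KO-LPS that overlapped those of CPEB1-KO. Atg16l2 had 28.4, 22.1 and 16.7 in CPEB1-KO and 21.9, 13.5 and 8.11 in CPEB1-KO-LPS (−0.62 ± 0.38, adjusted p = 0.399). The lowest of these, replicate 3 of CPEB1-KO-LPS, was also the library with the highest summed erythroid markers of its group, 61141 TPM against 7051 and 11851 in the other two, and the part of that in its values was not tested. Rb1cc1 had 52.7, 65.4 and 67.6 in CPEB1-KO and 59.5, 64.6 and 55.6 in CPEB1-KO-LPS (−0.05 ± 0.17). Atg2a had 70.5, 62.6 and 60.2, then 103.4, 73.7 and 54.6 (0.26 ± 0.32). Atg4d had 61.3, 52.9 and 53.9, then 62.8, 46.4 and 42.9 (−0.14 ± 0.22). Gabarap had 204, 173 and 182, then 148, 146 and 197 (−0.19 ± 0.21). Over the 36 members, 10 lay wholly above and 4 wholly below after LPS, where 18.9% and 16.5% of all genes did (35.4% in either direction). In the same libraries the summed TPM of the 13 homeostatic microglial markers was 3742 to 5415 in CPEB1-KO and 925 to 3614 in CPEB1-KO-LPS. Of these, 13 of 13 estimates were negative, 7 markers lay wholly below and 3 were called lower. The 6 choroid plexus and ependymal markers (4 called lower) summed to 7161 to 9154 and 2516 to 3720, and all 6 lay wholly below. Estimates were negative for 12 of 12 neuronal markers (3 wholly below, 0 called). Of 12 oligodendrocyte lineage markers 10 were negative and 2 positive, with 7 wholly below and 3 called lower. Astrocyte markers had 1 call higher, and endothelial and mural markers and monocyte markers 1 call lower each. The part of these markers in the values of the autophagy genes was not tested.

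The LPS responses of the 2 genotypes share no library. Their estimates had the same sign for 28 of 36 members, where 67.7% of all genes did, and the Pearson correlation of log2 fold changes across the members was 0.66, against 0.68 across all genes tested. These are correlations across genes, which are not independent replicates. Of the 8 members called in wild type, 6 had the same sign in CPEB1-KO, where 85.6% of all genes called in wild type did.

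**Figure D4:**
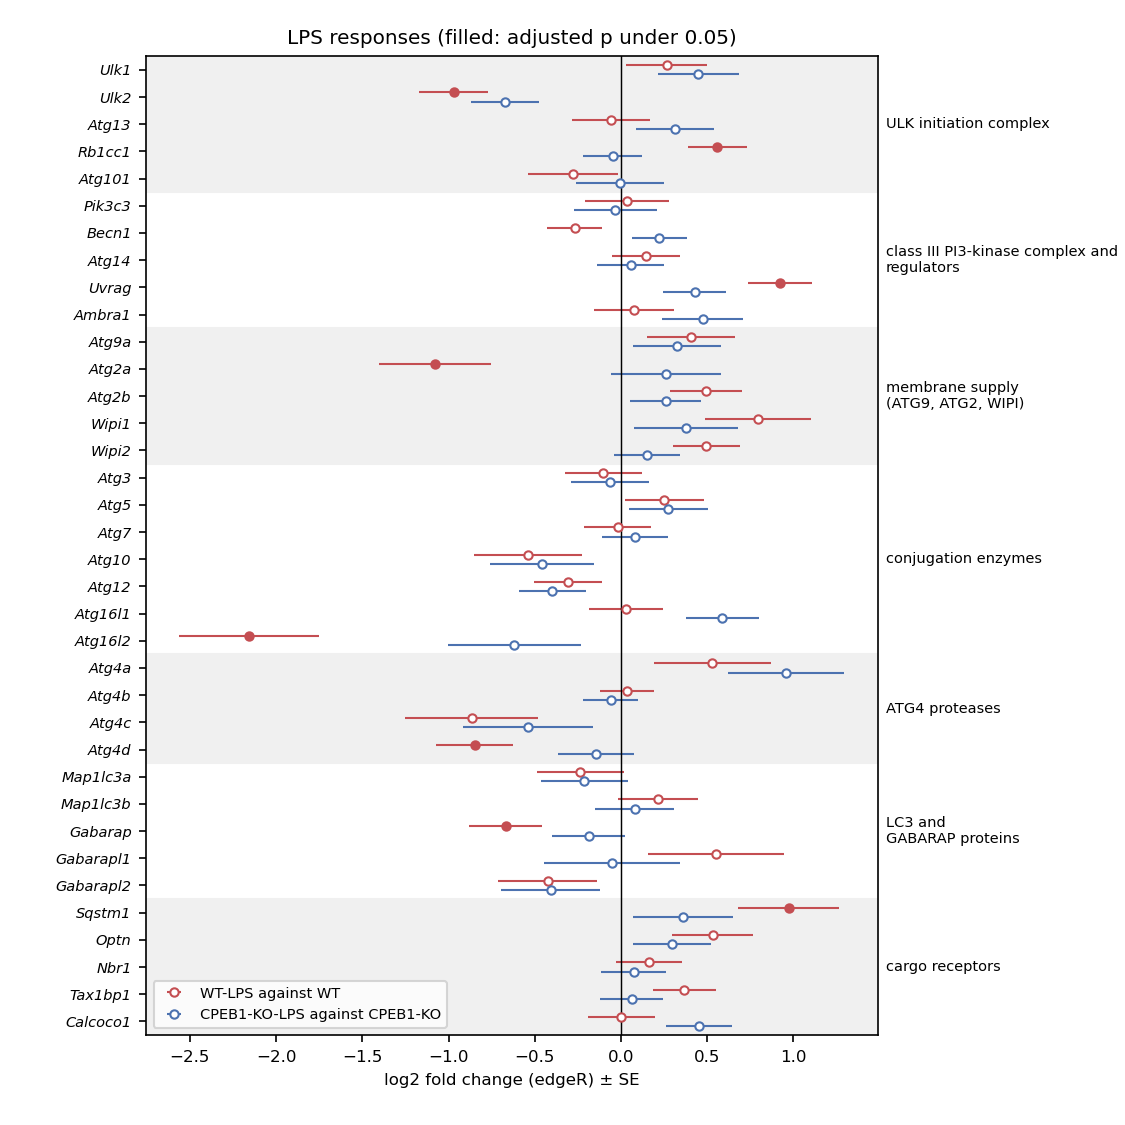
Log2 fold change (edgeR) with LPS for each of the 36 autophagy genes in wild type (red) and in CPEB1-KO (blue), with bars of 1 SE; filled points have an adjusted p under 0.05. The 8 filled points are all in wild type, from Atg16l2 at −2.16 to Sqstm1 at 0.97.

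The difference between the LPS responses was itself tested, as an interaction. No member passed in edgeR, where 0.00654% of all genes (1 gene) did; 5 members had an unadjusted p under 0.05, and DESeq2 and limma on log2(TPM + 1) each called 0. The 5 were Atg2a, with a response higher by 1.34 ± 0.46 (log2) in CPEB1-KO than in WT (95% interval 0.36 to 2.32, adjusted p = 0.223), Atg16l2 (1.54 ± 0.55, 0.35 to 2.72, adjusted p = 0.233), Atg4d (0.70 ± 0.31), Becn1 (0.49 ± 0.22) and Rb1cc1 (−0.61 ± 0.24). For Sqstm1 the difference was −0.61 with a 95% interval of −1.50 to 0.27, and for Ulk2 it was 0.30 with an interval of −0.30 to 0.90. The interval of Sqstm1 includes no difference as well as a difference as large as its wild-type response, so a missed threshold does not show that the genotypes responded alike. Atg2a passed when WT replicate 1 was left out. Cell markers shifted as well, although edgeR called 0 of them. Estimates were positive for all 13 homeostatic microglial, 4 erythroid, 6 choroid plexus and ependymal, and 9 T, NK and B cell markers. They were negative for all 12 neuronal and 10 astrocyte markers, and of mixed sign in the other lists. All 4 erythroid markers had an unadjusted p under 0.05. The part of these markers in the differences of the autophagy genes was not tested.

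The genotypes were next compared without LPS. No member passed in CPEB1-KO against WT in edgeR, where 0.0327% of all genes (5 genes) did; 4 had an unadjusted p under 0.05 (Atg2a, Atg4d, Wipi2 and Rb1cc1), DESeq2 called 1 (Atg2a) and limma on log2(TPM + 1) called 0. Atg2a, with the WT values given above, had all 3 CPEB1-KO libraries (60.2 to 70.5) below the lowest WT library (75.5), an estimate of −1.08 ± 0.32 (adjusted p = 0.169). Rb1cc1 was above WT in every CPEB1-KO library (0.39 ± 0.17, adjusted p = 0.257). Wipi2 had 90.8, 74.1 and 69.0 in WT and 102, 105 and 117 in CPEB1-KO, also without overlap (0.46 ± 0.19, adjusted p = 0.233). Gabarapl1 had 539.6, 584 and 710.4 in CPEB1-KO, all above the WT libraries, the highest of which was 537 (0.78 ± 0.40, adjusted p = 0.306). The summed TPM of the 12 neuronal markers was 1433 to 4096 in WT and 4235 to 5848 in CPEB1-KO, and its part in the level of Gabarapl1 was not tested. All 13 homeostatic microglial markers lay wholly below WT in CPEB1-KO (median log2 fold change −1.12; summed TPM 7367 to 8761 in WT and 3742 to 5415 in CPEB1-KO), although edgeR called 0 of them (5 at an unadjusted p under 0.05). All 4 erythroid markers also lay wholly below (41663 to 66991 and 27877 to 37849), with 0 called in edgeR and 0 at an unadjusted p under 0.05. The part of these markers in the differences of Atg2a, Rb1cc1 and Wipi2 was not tested. In all, 7 members lay wholly above and 2 wholly below WT, where 12.9% and 13.9% of all genes did (26.8% in either direction). Without WT replicate 1, 2 members passed (Atg2a and Sqstm1), and the calls over all genes went from 5 to 1292.

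The last comparison was between the genotypes after LPS. No member passed in CPEB1-KO-LPS against WT-LPS in edgeR, where 0.00654% of all genes (1 gene) did; 3 had an unadjusted p under 0.05 (Calcoco1, Atg16l2 and Atg4c), and DESeq2 and limma called 0. Calcoco1, a relative of the cargo receptor NDP52 that is linked to turnover of the endoplasmic reticulum and Golgi, had 60.8, 61.5 and 65.9 in WT-LPS and 118, 98.5 and 68.3 in CPEB1-KO-LPS. The second group lay above the first, with 1 library close to it (0.60 ± 0.19, adjusted p = 0.420). Atg16l2 was 1.04 ± 0.40 higher (adjusted p = 0.422), and its ranges overlapped at 5.09 to 8.74 and 8.11 to 21.9. Atg4c was at 0.94 ± 0.38 (adjusted p = 0.438), with overlapping ranges. Estimates were positive for 27 of 36 members with a median of 0.12. Over all genes 8509 of 15295 estimates were positive, with a median of 0.06. In this comparison 3 members lay wholly above and 1 wholly below, where 8.49% and 5.72% of all genes did (14.2% in either direction). Marker sums (TPM) also differed. Monocyte sums (7 markers) ran from 105 to 163 for CPEB1-KO-LPS, below the 249 to 508 of WT-LPS. Astrocyte sums (10 markers) were 1317 to 1808, below 2148 to 3664. Choroid plexus and ependymal sums (6 markers) were 2516 to 3720, above 1123 to 2300. Sums of the other lists overlapped, although all 4 erythroid estimates were positive, and edgeR called 0 markers. The erythroid sum was 61141 TPM in replicate 3 of CPEB1-KO-LPS, against 7051 and 11851 in replicates 1 and 2. Replicate 3 was also the lowest of its group for Calcoco1 (68.3), Atg16l2 (8.11) and Atg4c (11.2, against 38.2 and 33.1). The part of cell markers in the differences of Calcoco1, Atg16l2 and Atg4c was not tested.

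**Figure D5:**
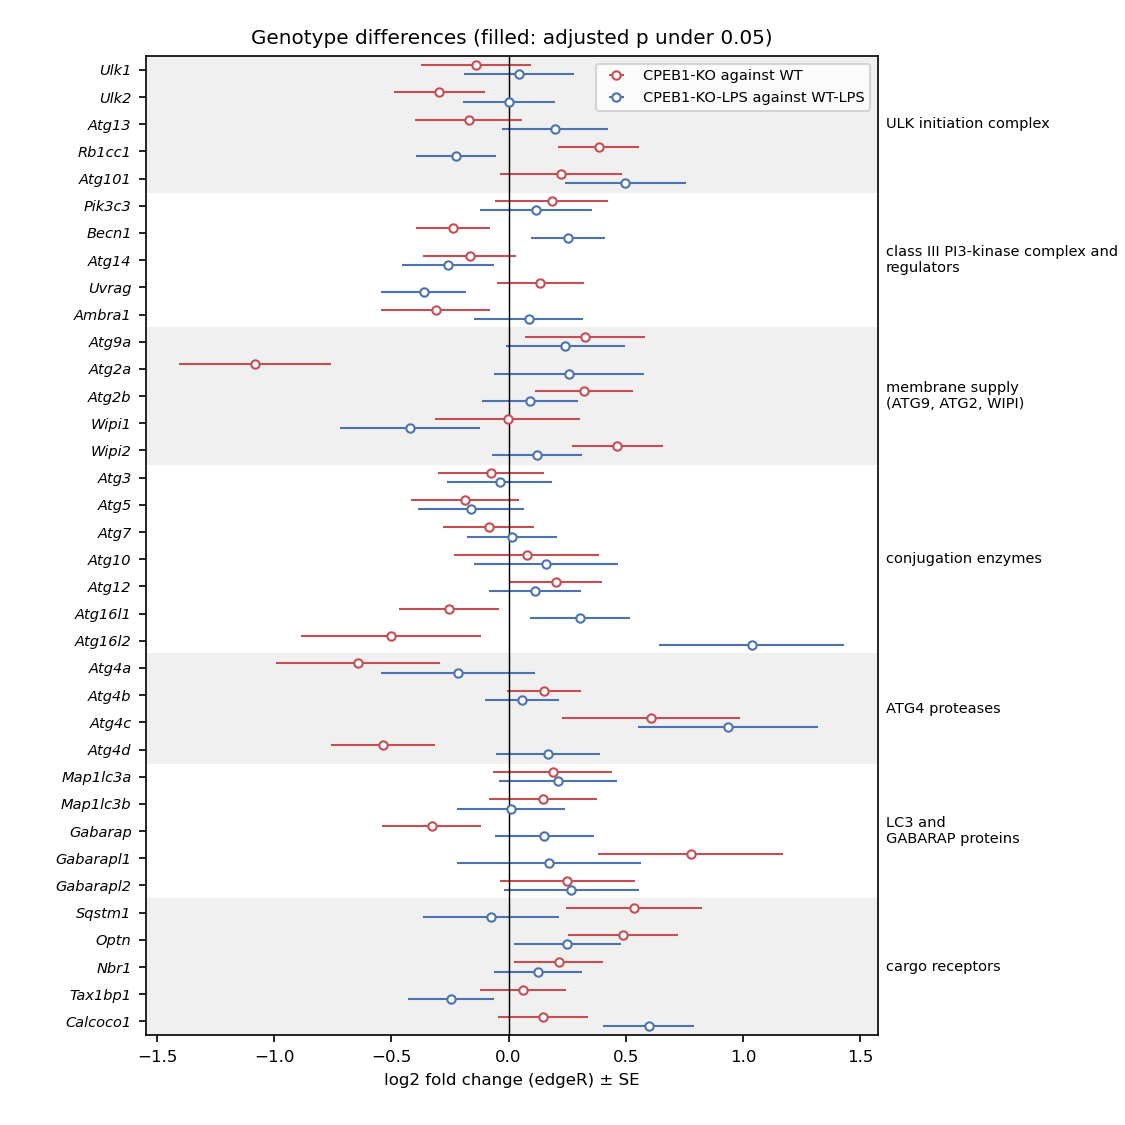
Log2 fold change (edgeR) of CPEB1-KO against WT (red) and of CPEB1-KO-LPS against WT-LPS (blue) for each of the 36 autophagy genes, with bars of 1 SE; no point is filled because none had an adjusted p under 0.05. Atg2a lies farthest from 0 among the red points, at −1.08, and Atg16l2 among the blue ones, at 1.04.

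The genes around the machinery were read from 4 lists of 93 genes in all, none of them members. Cell markers shifted in the same libraries, as given above, and their part in the changes of these genes was not tested. Of 28 genes of upstream signalling and transcription, 7 rose and 4 fell in WT-LPS against WT (39.3% called, against 27.4% of all genes), and 1 rose and 1 fell in CPEB1-KO-LPS against CPEB1-KO (7.14%, against 6.22%). Ddit4 (REDD1), an inhibitor of mTORC1, rose in WT by 2.11 ± 0.23 (log2, SE; edgeR adjusted p = 1.05e-04) and in CPEB1-KO by 1.52 ± 0.23 (0.00134). Tfeb and Mitf, related transcription factors of lysosomal and autophagy genes, fell in WT by 1.38 ± 0.24 (0.00150) and 1.07 ± 0.21 (0.00351). Mitf also fell in CPEB1-KO, by 0.77 ± 0.21 (0.0471). Tsc2, a brake on mTORC1, fell in WT by 2.23 ± 0.45 (0.00374). Its WT libraries held 166, 774 and 954 normalised CPM and all 9 other libraries 126 to 195, so WT replicate 1 stood with the other groups.

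Of 20 initiation and membrane factors outside the members, 6 rose and 2 fell in WT (40%, against 27.4% of all genes) and 1 rose in CPEB1-KO (5%, against 6.22%). Rubcn (Rubicon), which restrains the UVRAG-containing kinase complex, fell in WT by 1.20 ± 0.26 (edgeR adjusted p = 0.00474). Mcl1 and Bcl2l1, survival proteins that bind Beclin 1, rose in WT by 1.48 ± 0.37 (0.0108) and 0.81 ± 0.18 (0.00546), and Snx30, a sorting nexin, by 0.99 ± 0.17 (0.00183). Mcl1 also rose in CPEB1-KO, by 1.33 ± 0.37 (0.0481).

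Among 21 genes of fusion with the lysosome, 3 rose and 1 fell in WT (19.05%, against 27.4% of all genes), and 2 rose in CPEB1-KO (9.52%, against 6.22%). Vps11, a tethering subunit, rose by 1.06 ± 0.19 in WT (edgeR adjusted p = 0.00181) and 0.80 ± 0.18 in CPEB1-KO (0.0215). Stx17, the SNARE of the autophagosome, rose by 1.06 ± 0.21 in WT (0.00329) and 0.77 ± 0.21 in CPEB1-KO (0.0436). In WT, Vps33a rose by 0.52 ± 0.18 (0.0430) and the SNARE Vti1b fell by 0.74 ± 0.20 (0.0175).

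Of 24 selective autophagy factors, 4 rose and 3 fell in WT (29.2%, against 27.4% of all genes) and 1 rose in CPEB1-KO (4.17%, against 6.22%). Irgm1, an interferon-induced GTPase of antibacterial autophagy, rose by 2.88 ± 0.39 in WT (edgeR adjusted p = 4.08e-04) and 2.73 ± 0.38 in CPEB1-KO (8.43e-04). Tbk1, the kinase that phosphorylates Optn and p62, rose in WT by 1.03 ± 0.22 (0.00462), and Usp30, a mitochondrial deubiquitinase that opposes mitophagy, by 0.98 ± 0.19 (0.00266). Ccpg1, a receptor for turnover of the endoplasmic reticulum, fell by 0.89 ± 0.17 (0.00282). In both genotype comparisons and in the interaction edgeR called 0 of the 93 genes, and 0 to 7 genes of each list had an unadjusted p under 0.05; the other tools were not read for these lists.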

How the data were processed

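Poly(A) RNA was sequenced from microglia of 12 mice in 4 groups of 3. Per the submitters' processing notes, the authors used cutadapt, RSEM and the mm10 mouse build; their versions, the aligner and filters are not given in those notes. The deposited tables hold, per gene and library, expected counts that the authors did not normalise between libraries and TPM that the authors scaled within each library. RSEM divides reads that match several genes among them, so values of related members depend on that division.

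After rounding, the expected counts were tested in R 4.3.3 with edgeR 4.0.16: genes kept by filterByExpr, TMM scaling, a mean per group over all 12 libraries (8 residual degrees of freedom) and glmQLFTest, two-sided, with Benjamini-Hochberg adjustment over all 15295 genes tested and a threshold of 0.05. The standard error is the absolute log2 fold change over the root of F, and 95% intervals use the fit's degrees of freedom. CPM were normalised with TMM; TPM served for levels between genes and ratios within a library. The script was tested on simulated data. Promoter windows and positions came from RefSeq (GRCm38.p6) and GENCODE M21 on mm10.

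Alternatives were DESeq2 1.42.0, limma 3.58.1 on log2(TPM + 1) and log2(TPM + 0.1), other size factors, no filter, a replicate block, fits of 2 groups only, and each library left out; a fit without both replicate 1 libraries of WT and WT-LPS and a median-centred TPM fit were added after seeing the data. Where a left-out library leaves 2 in a group, the spread is shared with the other groups. The labels give 1 animal per replicate number, so numbers do not pair animals across groups; deviations of same-numbered libraries correlated above 0.1 in every pair for WT with WT-LPS alone (0.378, 0.149 and 0.176), where the blocked value is given beside the result. Values in every library were given for each member past the threshold and at least 1 member per role, and up to 4 genes with the smallest p among those past the threshold from each pathway list. Members and lists were chosen with earlier results of these data known, so no list is independent evidence.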

Additional observations from a re-analysis of the deposited data

Results flagged for a closer look

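Members were flagged if the interaction passed, or if libraries separated wholly but in opposite directions in both LPS or both genotype comparisons. Becn1, which encodes Beclin 1, was the only one of the 36 flagged, by its LPS comparisons. Its separation, given next, is that rule itself and not further evidence. Ranges without overlap occurred in 37.6% of all genes in WT-LPS against WT and in 35.4% in CPEB1-KO-LPS against CPEB1-KO. How many of all genes met the rule was not counted. Becn1 had LPS estimates of opposite sign in the 2 genotypes. All 3 WT-LPS libraries (112, 110 and 115 TMM-normalised CPM) lay below all 3 WT libraries (124, 132 and 149), and all 3 CPEB1-KO-LPS libraries (136, 127 and 138) lay above all 3 CPEB1-KO libraries (119, 110 and 115). The difference of the responses was 0.49 ± 0.22 (log2, SE; 95% interval 0.01 to 0.98; edgeR adjusted p = 0.318), so it failed the correction over all genes. Neither response passed alone. The part of cell markers in the responses of Becn1 was not tested. On the TPM scale the difference of the responses was 0.09 (limma adjusted p = 0.878) and the wild-type estimate 0.09 in place of −0.27. With the library medians equalised on that scale, the difference was 0.45 (adjusted p = 0.347) and the wild-type estimate −0.27.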

How the results depend on the processing

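The count of called members in WT-LPS against WT was 8, and 7 to 10 with other size factors, DESeq2, no filter, TPM at either pseudocount or centred TPM. It was 3 with the WT and WT-LPS libraries alone and 5 to 10 with 1 library left out. Uvrag and Atg16l2 passed in all 21 alternatives, Ulk2 in 19, Atg4d in 17, Sqstm1 in 16, Rb1cc1 and Atg2a in 14 and Gabarap in 7; none of the 8 reversed sign in any of them. In CPEB1-KO-LPS against CPEB1-KO the count was 0 and became 1 with DESeq2, with these groups fitted alone and without both replicate 1 libraries of WT and WT-LPS, and 0 to 1 with 1 library left out. In CPEB1-KO against WT the count was 0, 1 with DESeq2, 0 to 2 with 1 library left out, and 4 without both replicate 1 libraries (Atg2a, Atg4d, Gabarapl1 and Sqstm1). CPEB1-KO-LPS against WT-LPS gave 0 in every alternative run. The interaction gave 0, or 0 to 1 with 1 library left out, and has no fit with 2 groups only. With the replicate block the counts were 6, 0, 0, 0 and 0, and the block ended no call of a member other than Rb1cc1 and Gabarap. Over all genes, 4185 calls in WT-LPS against WT became 2592 with 2 groups only and 2714 without WT-LPS replicate 3, and the share of calls that were higher was 45.4% on counts and 75.7% on TPM. In CPEB1-KO against WT, 5 calls became 519 with DESeq2, 1292 without WT replicate 1 and 2349 without both replicate 1 libraries. In CPEB1-KO-LPS against CPEB1-KO, 952 calls became 1655 with DESeq2 and 355 to 1132 with 1 library left out. In CPEB1-KO-LPS against WT-LPS 1 call became 90 with DESeq2 and 1 to 11 with 1 library left out, and in the interaction 1 call became 301 with DESeq2, 0 to 441 with 1 library left out and 450 without both replicate 1 libraries. The causes were not tested. Depth limits Atg4a most, with 22 to 75.4 expected counts per library.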
